A study of Mus musculus with 6 samples.

Results

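The glutathione, thioredoxin and antioxidant genes were described in mouse quadriceps, the front thigh muscle, with and without Klf15 in muscle. Members were rows of the deposited expression matrix whose symbols name a glutathione transferase, glutathione peroxidase, peroxiredoxin, thioredoxin family protein, superoxide dismutase, heme oxygenase, catalase (Cat), glutathione reductase (Gsr), glutamate-cysteine ligase subunit (Gclc, Gclm) or Nqo1. A mean of at least 1 FPKM over the 6 libraries was required. FPKM is a level corrected for transcript length and for the number of fragments in a library, so genes of different length can be set side by side. Values per library are given in the order of the library numbers. Of 23314 rows, 69 matched by symbol, 3 of them were pseudogene rows with -ps in the name, 11 had lower means, and 55 genes remained. Just inside the limit stood Gstm6, Gstt3 and Gstm7, with means of 1.48, 1.68 and 1.72 FPKM, and just outside it Mgst2 and Gstm3, with 0.581 and 0.257 FPKM.

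The K15SKO group was the muscle Klf15 knockout, with 1 copy of Myogenin-Cre and floxed Klf15 on both chromosomes (Myogenin-Cre/+;K15F/F). The MyoCre group was its control, which carried Myogenin-Cre/+ alone. Mice of both groups were 2 months old and each group held 3 libraries of total RNA from whole quadriceps. Myogenin is switched on in differentiating muscle cells, so fat, vessel, immune and connective tissue cells of the muscle are not targeted by this Cre. The design text gives n = 4, and the labels leave unstated whether each library is a different mouse. A p-value here therefore covers only the spread among these libraries, which may be technical.

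Cells contain hydrogen peroxide and superoxide as by-products of respiration and as signals. Superoxide dismutases turn superoxide into hydrogen peroxide, which catalase, glutathione peroxidases and peroxiredoxins reduce to water. Glutathione peroxidases draw on glutathione, made by glutamate-cysteine ligase and glutathione synthetase and recycled by glutathione reductase. Most peroxiredoxins draw on thioredoxin, which thioredoxin reductase recycles with NADPH and which Txnip binds and inhibits. Glutathione transferases join glutathione to reactive lipids and foreign compounds, and the factor NRF2 raises many of these genes through antioxidant response elements. In muscle these systems act beside a high and variable rate of mitochondrial respiration.

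The targeted gene, Klf15 (chr6:90462576-90475238, plus strand, mm10), was listed at 2.22, 21.7 and 5.32 FPKM in K15SKO, against 35.2, 28.4 and 30.5 FPKM in MyoCre. It was lower in 3 of 3 K15SKO libraries, and highest among them in K15SKO 2. That library also held the most liver transcripts, as described below, and their part in its Klf15 level was not tested. The log2 difference was −2.06 (SE 0.66, limma adjusted p = 0.273, exact two-sided permutation p = 0.1, the smallest that 3 against 3 libraries allow). All 10 muscle fibre markers, such as Ttn, Neb and Ryr1, were above 0 in every library. They summed to 7443, 8293 and 12330 FPKM in K15SKO, against 10890, 10090 and 12790 FPKM in MyoCre, lowest in K15SKO 1 and 2. Of the 10, 4 had a log2 difference above 0 and 6 below. The K15SKO libraries differed from each other. Summed over 30 liver markers such as Alb, the albumin gene, they stood at 118, 8788 and 31.9 FPKM in K15SKO, against 48.9, 85.6 and 38.8 FPKM in MyoCre. None of the 30 was at 0 in a K15SKO library, against 3, 10 and 11 of them in MyoCre. All 3 K15SKO libraries stood above all 3 MyoCre libraries for 24 of the 30 (13.4% of all genes), and below them for 0. Alb was at 21.1, 2203 and 4.36 FPKM in K15SKO, against 1.13, 0.298 and 0.311 FPKM in MyoCre, so K15SKO 1 and 3 were not free of liver transcripts. Cyp2e1, which fat also expresses, made up most of the MyoCre sums, at 32.1, 68.2 and 26.7 FPKM. The macrophage gene Cd68 stood at 43.8, 43.6 and 1.24 FPKM in K15SKO, against 0.895, 1.45 and 1.11 FPKM in MyoCre. Summed over 15 macrophage markers, none of them at 0 in any library, the level was 363, 203 and 42.4 FPKM in K15SKO, against 56.1, 54.3 and 46.4 FPKM in MyoCre. FPKM summed to between 396375 and 466756 per library, and the absolute depth is unknown. The 10 markers of muscle regeneration summed to 106, 91.7 and 21.8 FPKM in K15SKO, against 24.8, 15.1 and 14.6 FPKM in MyoCre, with 2 of them at 0 in K15SKO 3 and 1 at 0 in MyoCre 3. Among them Myog, the myogenin gene, was at 31.9, 27.3 and 3.90 FPKM in K15SKO, against 2.36, 2.2 and 1.84 FPKM in MyoCre. Of the 9 that were tested, 8 had a log2 difference above 0 and 1 below. That 1 was Myod1, at 11.9, 7.12 and 9.35 FPKM in K15SKO, against 17.7, 6.99 and 6.75 FPKM in MyoCre. Pax7, under 1 FPKM and not tested, was at 0.685, 0.573 and 0.460 FPKM in K15SKO, against 0.642, 0.578 and 0.633 FPKM in MyoCre. The 10 slow fibre markers, none at 0, summed to 875, 261 and 1262 FPKM in K15SKO, against 237, 335 and 58.97 FPKM in MyoCre. K15SKO 2 was thus the library with the most liver transcripts. The sums of macrophage and of regeneration markers were highest in K15SKO 1 and 2, and the sum of slow fibre markers in K15SKO 1 and 3. The part of these cell types and fibre states in the members' levels was not tested. In whole muscle, fewer cells of a type and less RNA per cell cannot be told apart.

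Short stretches before the transcription start are shown for 4 members whose promoter holds the letters of an antioxidant response element, since that element is the best known shared control of this gene group. The core TGACNNNGC was searched on both strands in the 250 bases before each start in RefSeq (GRCm38.p6), and 46 of the 55 members had a promoter there. It was found for 10 of the 46 (21.7%), against 14.2% of the 8260 tested genes with a promoter. The last 150 bases before the start are printed 5′ to 3′ on the gene's strand, with the match in capitals.
Sod1, chr16:90220612-90220761, plus strand: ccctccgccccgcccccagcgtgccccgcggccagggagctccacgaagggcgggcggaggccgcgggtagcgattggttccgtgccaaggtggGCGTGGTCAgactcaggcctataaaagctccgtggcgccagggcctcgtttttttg
Txnrd1 (one of its starts), chr10:82859056-82859205, plus strand: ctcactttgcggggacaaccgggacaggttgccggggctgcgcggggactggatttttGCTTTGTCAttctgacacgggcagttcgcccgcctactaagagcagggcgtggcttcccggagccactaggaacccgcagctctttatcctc
Gclm, chr3:122245407-122245556, plus strand: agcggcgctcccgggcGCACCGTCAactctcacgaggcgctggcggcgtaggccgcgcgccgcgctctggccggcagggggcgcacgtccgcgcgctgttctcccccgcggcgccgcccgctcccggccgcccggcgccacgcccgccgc
Gsta3, chr1:21240435-21240584, plus strand: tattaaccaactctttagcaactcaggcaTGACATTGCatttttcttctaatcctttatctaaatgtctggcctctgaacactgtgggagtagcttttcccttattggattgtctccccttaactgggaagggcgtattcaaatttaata
The match reads on the gene's strand in Gsta3 and on the opposite strand in the other 3. A CACCC box, the letters CCNCNCCC that factors of the Klf family are known to bind, lay within 250 bases of the start of 31 of 46 members (67.4%), against 67.9% of tested genes. In the Sod1 window, 6 of the 9 capital bases also belong to such a box, and in the other 3 windows 0 do. A match is a string of letters, and binding was not measured.

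Across the 55 members no gene passed the test of K15SKO against MyoCre: limma on log2(FPKM + 1), adjusted over 11607 genes, called 0 members, where 6 genes were called in all (0.0517%). The lowest limma adjusted p of a member was 0.248. At an unadjusted p under 0.05, 7 members were higher in K15SKO (12.7%, against 8.43% of all genes) and 4 lower (7.27%, against 8.12%). All 3 K15SKO libraries stood above all 3 MyoCre libraries for 7 members (12.7%, against 13.4% of all genes) and below them for 3 (5.45%, against 11.3%), together 10 members where 24.7% of all genes did not overlap, and these shares lie near or under the background. The median log2 difference of the members was 0.11, against −0.02 over all genes tested, and 37 of 55 (67.3%) had a difference above 0, against 48% of all genes. The 37 include Gsta3 and Gstm6, which passed the limit on levels through K15SKO 2 alone, so nothing is read from this share. Of the 50 members not marked below as far highest in K15SKO 2, 32 had a difference above 0, and their median was 0.10. Without K15SKO 2, the library with the most liver transcripts, the members' median was 0.02.

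**Figure D1:**
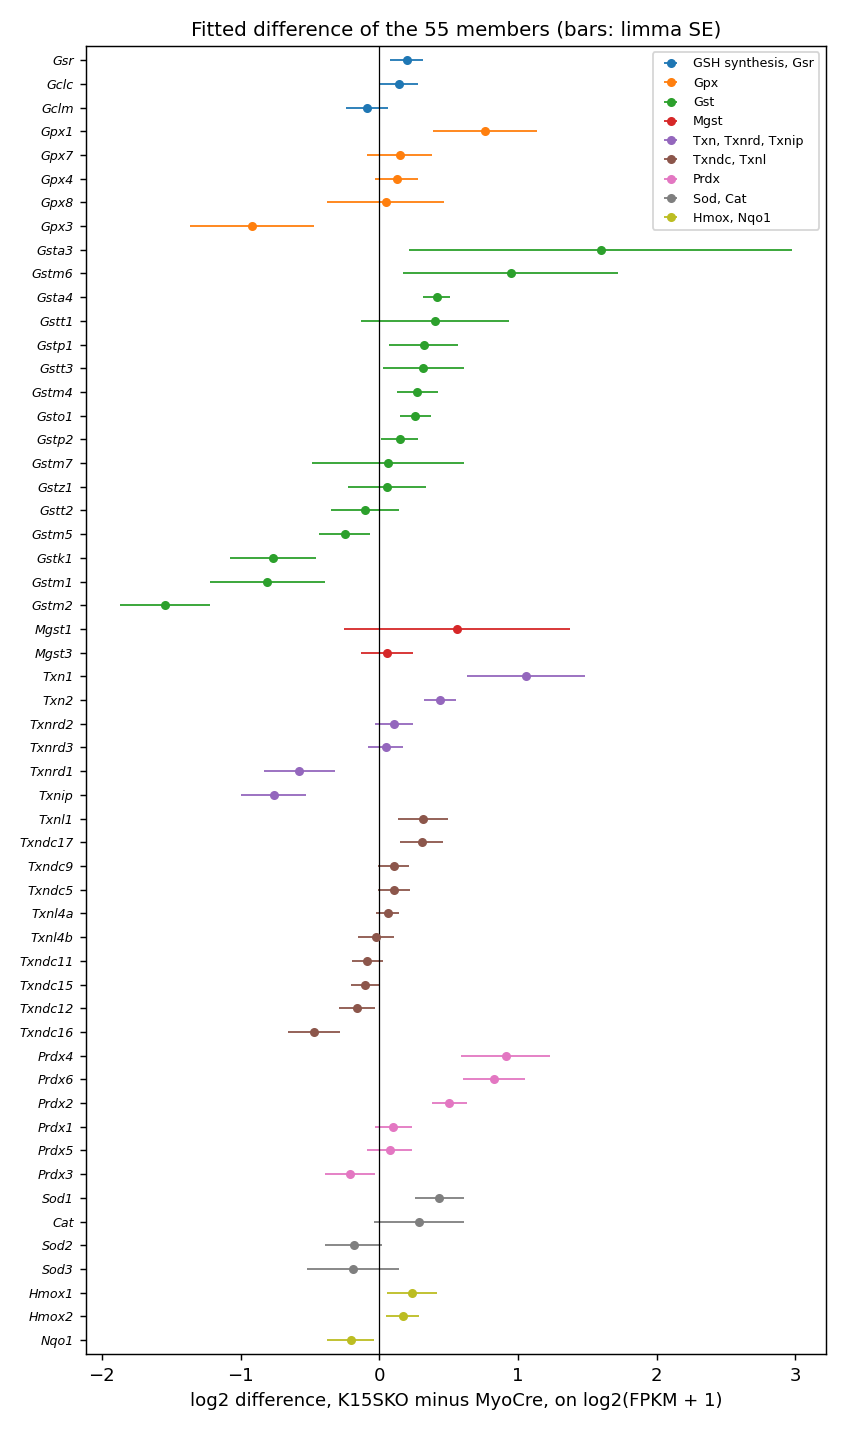
Fitted log2 difference (K15SKO minus MyoCre, log2(FPKM + 1)) of each of the 55 members, grouped and coloured by role, with bars for limma's standard error. Gsta3 has the highest value (1.6) with a wide bar, Gstm2 the lowest (−1.55), and most members lie within 0.5 of 0.

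What a member showed depended on the K15SKO library. Set against the range of the MyoCre libraries, 13 members (23.6%) were above it in K15SKO 2 alone, a pattern seen in 4.51% of all genes tested. Of the 13, Gsta3 and Gstm6 passed the limit on levels through K15SKO 2 alone, so nothing is read from this share. The same holds for the other counts of members above MyoCre in K15SKO 2. Library by library, 23 members were above that range and 19 below it in K15SKO 1 (37.2% and 43.2% of all genes), 29 above and 14 below in K15SKO 2 (33.4% and 43.8%), and 17 above and 16 below in K15SKO 3 (36.1% and 25.3%). By joint pattern, 6 members (10.9%, against 8.34% of all genes) were above the range in K15SKO 1 and 2 and within it in K15SKO 3, and 2 more, Gpx1 and Prdx1, were above it in K15SKO 1 and 2 and below it in K15SKO 3 (3.64%, against 5.05%). In the other direction, 6 members (10.9%, against 13.6%) were below the range in K15SKO 1 and 2 and within it in K15SKO 3, and Prdx3 and Sod2 were below it in K15SKO 1 and 2 and above it in K15SKO 3 (3.64%, against 9.48%). Gpx4, Mgst3 and Prdx5 were below it in K15SKO 2 alone (5.45%, against 7.16%). Within the range in K15SKO 1 and 2, Txndc9 and Txnrd2 were above it in K15SKO 3 (3.64%, against 2.93%). Gclm, likewise within it in K15SKO 1 and 2, was below it in K15SKO 3 (1.82%, against 1.57%). In K15SKO 3, 0 members stood at 1.5 times the MyoCre mean or more on FPKM + 1 (2.19% of all genes), against 8 members in K15SKO 1 (12.5% of all genes) and 13 in K15SKO 2 (10.8%). At 1 / 1.5 times the MyoCre mean or less stood 7 members in K15SKO 1 (11.7% of all genes), 5 in K15SKO 2 (8.56%) and 6 in K15SKO 3 (3.09%). Nothing in the labels sets K15SKO 3 apart, but without it limma called 10 members higher (18.2%, against 10.8% of all genes) and 7 lower (12.7%, against 12.8%). Without K15SKO 1 or without K15SKO 2 it called 0 members, against 0.0172% of all genes higher and 0.0172% lower in each case. By correlation over all tested genes K15SKO 3 was the K15SKO library most like MyoCre. Leaving it out favours calls, so nothing is read from the calls made without it.

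**Figure D2:**
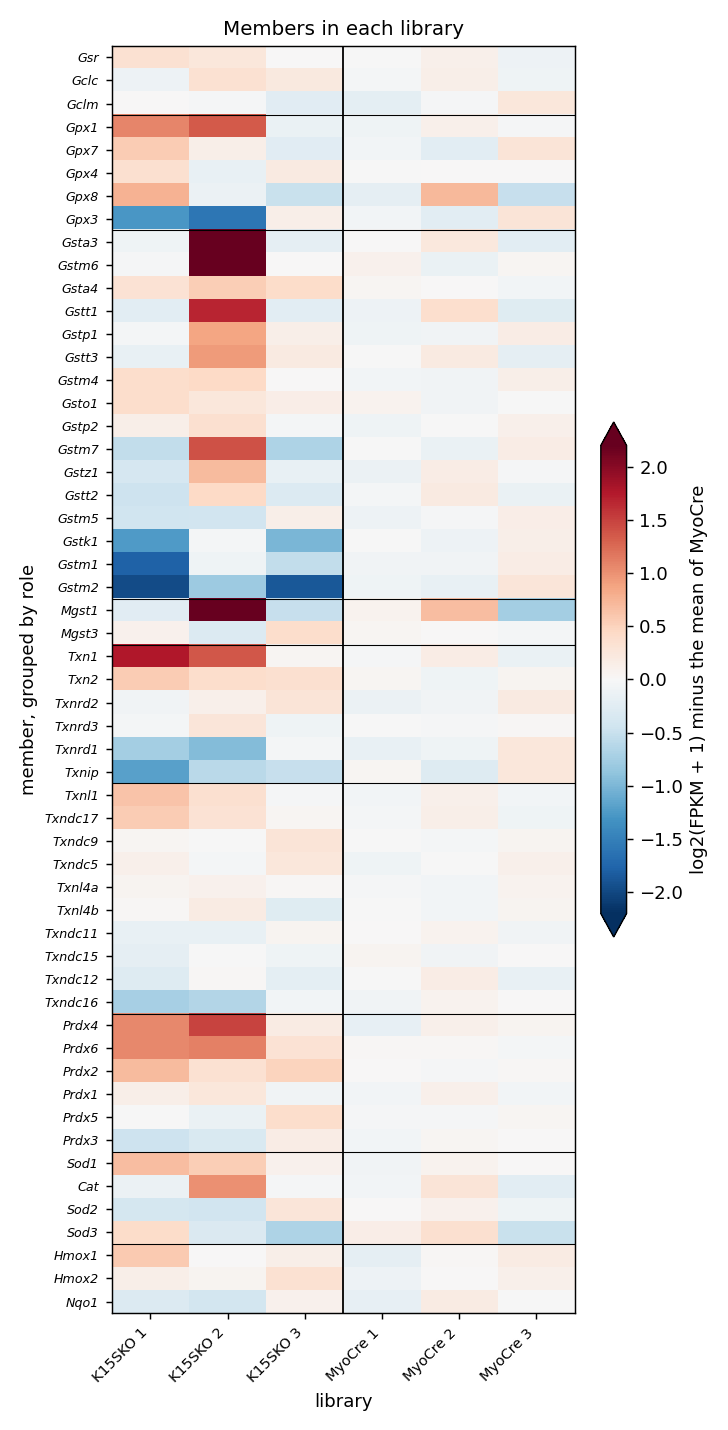
Level of each member in each library as log2(FPKM + 1) minus the mean of the 3 MyoCre libraries, with members grouped by role, K15SKO libraries left of the line and MyoCre libraries right of it. Gsta3, Gstm6 and Mgst1 are deep red in K15SKO 2 alone, while Txn1, Gpx1, Prdx4 and Prdx6 are red and Gpx3 and Txnrd1 blue in K15SKO 1 and 2, and paler in K15SKO 3.

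The 3 genes of glutathione synthesis and recycling stood at low to moderate levels and near each other in the 2 groups. Gclc, the catalytic subunit of glutamate-cysteine ligase, was at 4.87, 6.94 and 6.30 FPKM in K15SKO, against 5.17, 5.91 and 4.93 FPKM in MyoCre. Gclm, the modifier subunit that lowers the enzyme's need for substrate, was at 14.5, 14.2 and 12 FPKM in K15SKO, against 12.2, 14.2 and 17.4 FPKM in MyoCre. Gsr, which regenerates reduced glutathione with NADPH, was at 14.5, 13.7 and 11.5 FPKM in K15SKO, against 11.3, 12.4 and 10.5 FPKM in MyoCre. The groups overlapped for all 3 genes, and the limma adjusted p ran from 0.403 for Gsr to 0.737 for Gclm.

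The balance of the glutathione peroxidases in K15SKO 1 and 2 was unlike that in the other libraries. Gpx1 (chr9:108338903-108340343), the cytosolic and mitochondrial selenium enzyme, was at 169, 203 and 72.1 FPKM in K15SKO, against 74.7, 85.6 and 78.4 FPKM in MyoCre. It was high in K15SKO 1 and 2 and below all MyoCre libraries in K15SKO 3 (log2 difference 0.76, SE 0.37, limma adjusted p = 0.337). Gpx3 (chr11:54902453-54910377), the secreted form known from plasma, was at 95.9, 77.1 and 258 FPKM in K15SKO, against 226, 201 and 286 FPKM in MyoCre. It was low in the same 2 libraries and within the MyoCre range in K15SKO 3 (log2 difference −0.92, SE 0.45, limma adjusted p = 0.334). Of the summed FPKM of the 5 peroxidases, Gpx3 held 26.1%, 22.1% and 62.5% in K15SKO, against 60.2%, 55% and 64.9% in MyoCre. Gpx1 held 46%, 58.2% and 17.4% in K15SKO, against 19.9%, 23.4% and 17.8% in MyoCre. The sum itself stood at 377 ± 33.2 FPKM in K15SKO and 394 ± 40.5 FPKM in MyoCre (SD, n = 3 each).

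With 1 library left out, the log2 difference ran from 0.47 to 1.21 for Gpx1 and from −1.44 to −0.57 for Gpx3. For both genes it was furthest from 0 without K15SKO 3. K15SKO 1 and 2 are also the libraries with Cd68 at 43.8 and 43.6 FPKM. The adipocyte markers, 10 genes such as Adipoq, summed to 188, 125 and 248 FPKM in K15SKO, against 607, 1120 and 428 FPKM in MyoCre. Macrophages express Gpx1 and fat expresses Gpx3. Gpx1 was also highest in K15SKO 2, the library with the most liver transcripts. The part of macrophages, fat or liver in these levels was not tested. Gpx4, which reduces lipid hydroperoxides in membranes, was at 84.9, 58.5 and 75.5 FPKM in K15SKO, against 65.6, 66.1 and 66.4 FPKM in MyoCre. The groups overlapped because K15SKO 2 was low, and 34.7% of the 50-base words of Gpx4 transcripts also occur in other genes, chiefly the pseudogene Gpx4-ps2, so that its level is uncertain. Gpx7 and Gpx8, peroxidases of the endoplasmic reticulum, were above the MyoCre range in K15SKO 1 alone. Gpx7 was at 8.28, 5.91 and 4.31 FPKM in K15SKO, against 5.05, 4.37 and 6.70 FPKM in MyoCre. Gpx8 was at 9.10, 4.46 and 3.23 FPKM in K15SKO, against 4.21, 8.76 and 3.18 FPKM in MyoCre, so that its MyoCre libraries spread as widely.

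Of the 16 cytosolic and mitochondrial glutathione transferases, the mu-class genes Gstm2 and Gstm1 had the lowest log2 differences. Gstm2 (chr3:107981702-107986453, minus strand), a mu-class enzyme prominent in muscle, was at 6.61, 16.2 and 7.18 FPKM in K15SKO, against 26.9, 25.7 and 34.8 FPKM in MyoCre. Every K15SKO library was below every MyoCre library, and the log2 difference of −1.55 (SE 0.32, limma adjusted p = 0.248) was the lowest of any member and had the smallest unadjusted p, 0.00258. The log2 difference of Gstm2 was −1.385 without K15SKO 3, and ran from −1.92 to −1.33 with 1 library left out. Gstm1 (chr3:108012255-108017973, minus strand), its neighbour, was at 28.6, 94.8 and 69.3 FPKM in K15SKO, against 95.8, 95.8 and 113 FPKM in MyoCre. K15SKO 2 lay just under the MyoCre libraries and K15SKO 1 far under them (limma adjusted p = 0.348), and the groups overlapped after median-of-ratios scaling. The pseudogene row Gstm2-ps1, which shares 14.1% of the 50-base words of Gstm1, was at 8, 23.8 and 17.4 FPKM in K15SKO, against 24.4, 23.0 and 29.7 FPKM in MyoCre, a like order of libraries. The sources used here do not say how reads were divided between these rows.

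The rest of the mu class gave no single direction. Gstm4 was at 16.9, 17.4 and 12.7 FPKM in K15SKO, against 12.1, 12 and 14.0 FPKM in MyoCre, high in K15SKO 1 and 2. Gstm5 was at 55.6, 56.4 and 82.8 FPKM in K15SKO, against 70.1, 74.6 and 83.9 FPKM in MyoCre, low in K15SKO 1 and 2. The 6 mu genes lie in 1 cluster on chromosome 3, between the start of Gstm5 at 107895821 and the end of Gstm4 at 108044894, and were not read as independent of each other. Gstk1 (chr6:42245935-42250447), the kappa-class enzyme of mitochondria and peroxisomes, was at 15.8, 38.0 and 18.9 FPKM in K15SKO, against 38.9, 35.8 and 42.4 FPKM in MyoCre. It was low in K15SKO 1 and 3 and within the MyoCre range in K15SKO 2, the library with the most liver transcripts (log2 difference −0.77, SE 0.31, limma adjusted p = 0.298).

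Gsta4 and Gsto1 stood higher in every K15SKO library, by small amounts. Gsta4 (chr9:78182774-78209349), the alpha-class enzyme that conjugates hydroxynonenal, a product of lipid peroxidation, was at 11.9, 13.9 and 12.6 FPKM in K15SKO, against 9.66, 9.40 and 8.86 FPKM in MyoCre. Its log2 difference was 0.42 (SE 0.10, limma adjusted p = 0.254), with an unadjusted p of 0.00442. Gsto1, an omega-class enzyme that also reduces dehydroascorbate, was at 48.1, 43.7 and 40.3 FPKM in K15SKO, against 38.8, 34.4 and 36.5 FPKM in MyoCre. Its groups lay close (limma adjusted p = 0.309) and overlapped after median-of-ratios scaling. Gstp1 and Gstp2, pi-class enzymes, share 33.7% and 54.3% of their 50-base words with other genes, mostly each other and the row Gm3934, named Gstp-ps in GENCODE. Gstp1 was at 78.3, 148 and 87.7 FPKM in K15SKO, against 75.3, 76.1 and 90.5 FPKM in MyoCre, and Gm3934 at 127, 183 and 123 FPKM in K15SKO, against 109, 107 and 124 FPKM in MyoCre. The 3 rows were highest in K15SKO 2, and their levels cannot be taken apart with confidence.

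**Figure D3:**
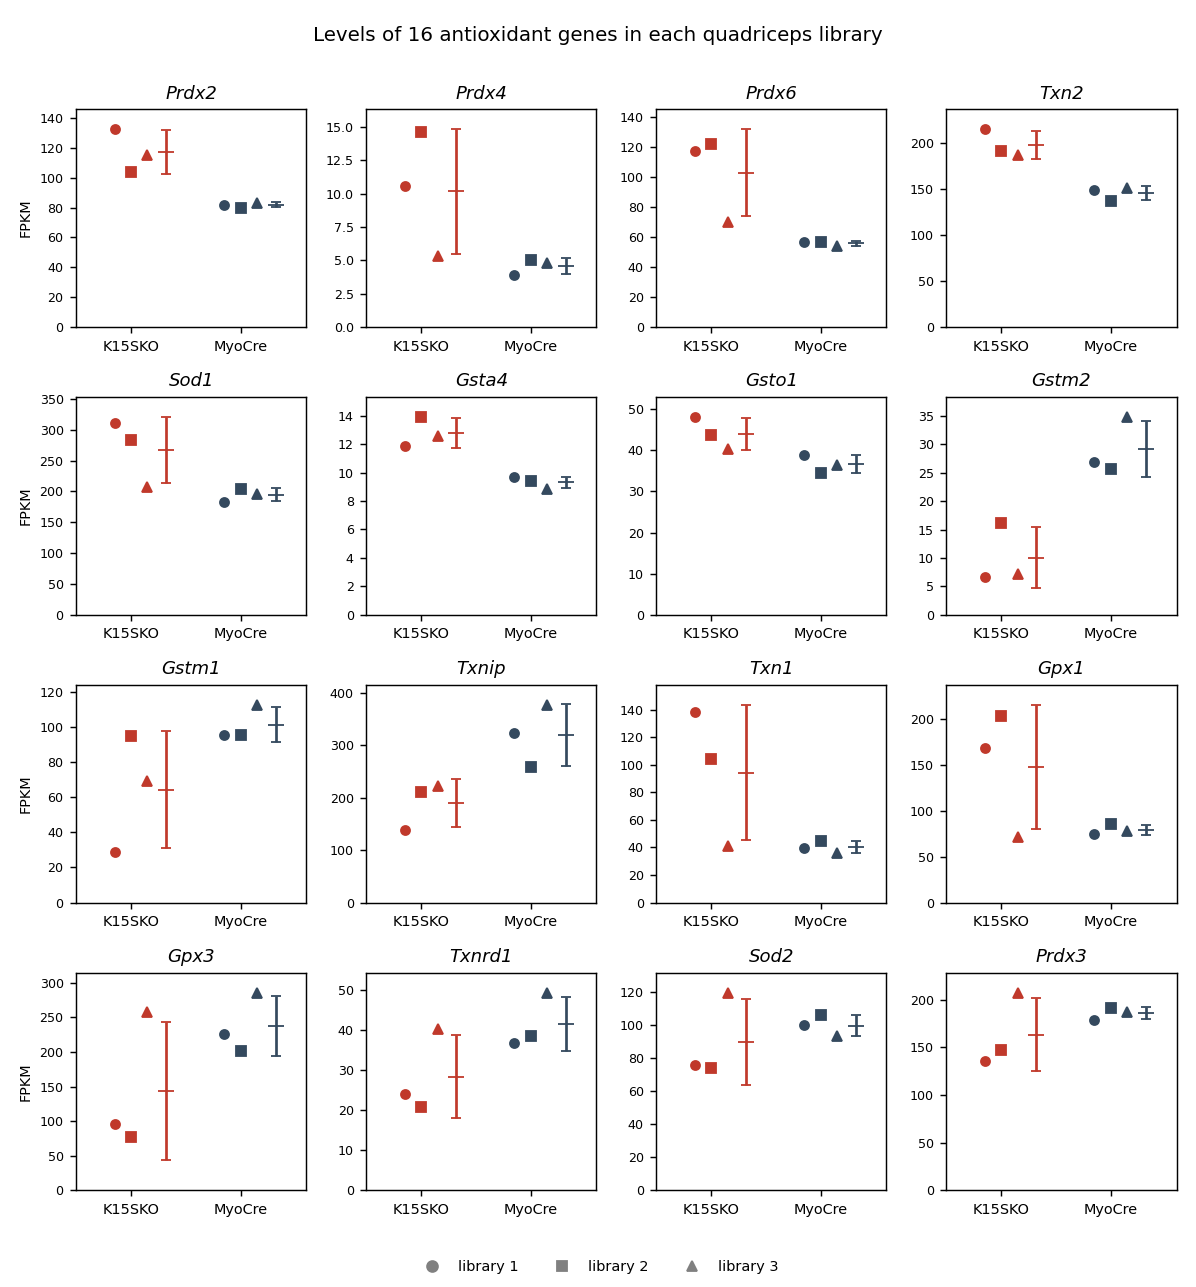
Level in FPKM of 16 members in each library, K15SKO left and MyoCre right in each panel, with a marker shape for each library number and the mean with its SD to the right of each group, on axes that start at 0. Prdx2, Prdx4, Prdx6, Txn2, Sod1, Gsta4 and Gsto1 lie higher in every K15SKO library, Gstm2, Gstm1 and Txnip lower in every one, and for Txn1, Gpx1, Gpx3, Txnrd1, Sod2 and Prdx3 the third K15SKO library lies apart from the first and second.

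Some members stood far highest in K15SKO 2, several of them known from liver. A member was marked where K15SKO 2 stood at least 2 times and at least 2 FPKM above the highest of the other 5 libraries, and 5 members were marked, so that their values there are a description. Gsta3, an alpha-class enzyme that mouse liver expresses strongly, was at 0.514, 53.3 and 0.410 FPKM in K15SKO, against 0.616, 0.892 and 0.369 FPKM in MyoCre, 59.7 times the next library. Gstm6 was at 0.194, 7.79 and 0.227 FPKM in K15SKO, against 0.300, 0.101 and 0.253 FPKM in MyoCre. Both genes reached the limit of 1 FPKM through K15SKO 2 alone. Gstm7 was at 0.620, 5.17 and 0.466 FPKM in K15SKO, against 1.32, 1.11 and 1.63 FPKM in MyoCre, so that it lay under the MyoCre libraries in K15SKO 1 and 3. Gstt1, a theta-class enzyme, was at 4.97, 21.6 and 5.02 FPKM in K15SKO, against 5.53, 8.16 and 4.86 FPKM in MyoCre. Mgst1, the microsomal transferase of endoplasmic reticulum and outer mitochondrial membrane, was at 52.2, 344 and 43.6 FPKM in K15SKO, against 65.6, 100 and 36.6 FPKM in MyoCre. Without K15SKO 2 the log2 differences of Gsta3, Gstt1 and Mgst1 were −0.14, −0.23 and −0.38, where they were 1.6, 0.40 and 0.56 with it.

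**Figure D4:**
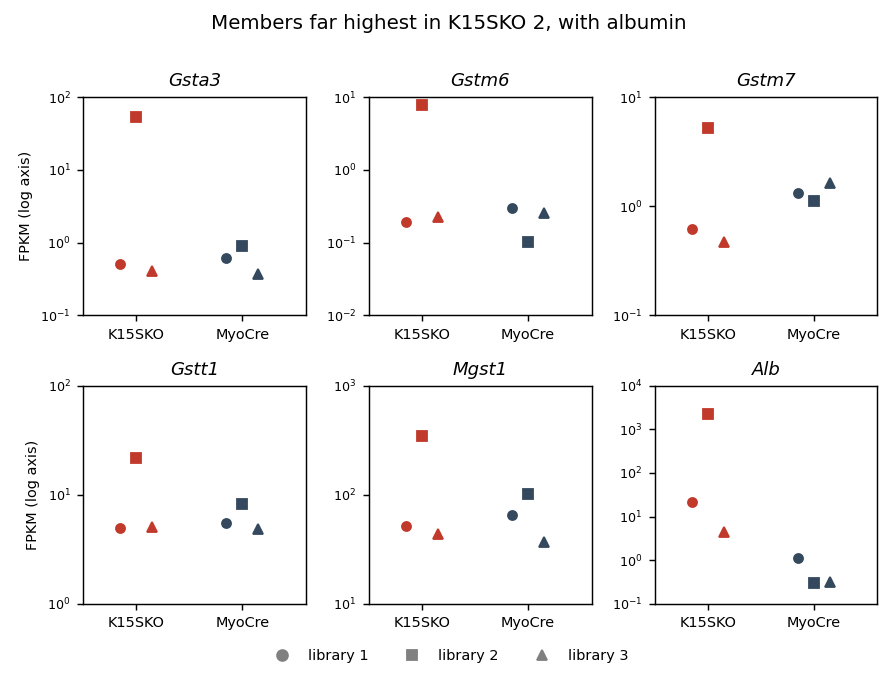
Level in FPKM on log axes of the 5 members far highest in K15SKO 2 and of albumin (Alb), K15SKO left and MyoCre right in each panel, with a marker shape for each library number. The second K15SKO library stands alone at the top of each panel, and for the 5 members K15SKO 1 and 3 lie within or below the MyoCre libraries, while Alb is also above them there.

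Another 8 members were above the MyoCre range in K15SKO 2 alone without meeting that mark. Gstz1, the maleylacetoacetate isomerase of tyrosine breakdown, was at 23.7, 50.5 and 27.2 FPKM in K15SKO, against 27.9, 34.5 and 30.1 FPKM in MyoCre, and without K15SKO 2 every remaining K15SKO value was below MyoCre. Gstt3 and Gstt2 stood at 3.40 and 5.50 FPKM in K15SKO 2, against 1.65 and 4.47 FPKM in the highest MyoCre library. Gstp1 and Cat belong here too, and the last 3, Txnl4a, Txnl4b and Txnrd3, exceeded the range by less than 1 FPKM. Gsta1 and Gsta2, below the limit on levels, were at 0.560 and 0.529 FPKM in K15SKO 2 and at 0.871 and 0.309 FPKM in K15SKO 1, against at most 0.0432 and 0.0431 FPKM in MyoCre. The microsomal Mgst3, by contrast, was abundant in every library, at 173, 131 and 211 FPKM in K15SKO, against 167, 164 and 157 FPKM in MyoCre, and lowest in K15SKO 2.

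Neither thioredoxin nor their inhibitor Txnip passed the test, and the 3 genes differed in how far the groups lay apart. Txn1 (chr4:57943373-57956411, minus strand), the cytosolic thioredoxin, was at 138, 104 and 41.0 FPKM in K15SKO, against 39.3, 44.6 and 36.0 FPKM in MyoCre. K15SKO 1 and 2 were high, and K15SKO 3 lay inside the MyoCre range (log2 difference 1.06, SE 0.43, limma adjusted p = 0.296). The log2 difference of Txn1 ran from 0.70 to 1.56 with 1 library left out, highest without K15SKO 3. Txn2 (chr15:77915047-77929006, minus strand), the mitochondrial thioredoxin, was at 215, 192 and 187 FPKM in K15SKO, against 149, 137 and 151 FPKM in MyoCre. Here all 3 K15SKO libraries were well above MyoCre, with a log2 difference of 0.44 (SE 0.12, limma adjusted p = 0.269). The K15SKO mean of Txn2 was the second highest of all members and its MyoCre mean the seventh.

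Txnip (chr3:96557957-96561883), which binds reduced thioredoxin and is known as a glucose-responsive brake on glucose uptake, was at 138, 210 and 223 FPKM in K15SKO, against 324, 259 and 377 FPKM in MyoCre. Every K15SKO library was below every MyoCre library (log2 difference −0.76, SE 0.23, limma adjusted p = 0.272), and the most abundant member by mean in MyoCre was thereby the third in K15SKO. The opposite-strand gene Gm15441 overlaps 19.4% of its exon bases, and the sources used here do not say whether strand was kept. The ratio of Txnip to Txn1 FPKM was 1.00, 2.02 and 5.43 in K15SKO, against 8.26, 5.81 and 10.5 in MyoCre, a ratio chosen after its values were seen.

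Thioredoxin reductases did not follow the thioredoxins. Txnrd1, the cytosolic selenium enzyme whose promoter is printed above, was at 24.0, 20.9 and 40.1 FPKM in K15SKO, against 36.6, 38.5 and 49.2 FPKM in MyoCre. It was low in the libraries in which Txn1 was high (log2 difference −0.58, SE 0.26, limma adjusted p = 0.311). The log2 difference of Txnrd1 ran from −0.85 to −0.39 with 1 library left out, lowest without K15SKO 3. Txnrd2, the mitochondrial form, was at 11, 12.6 and 14.2 FPKM in K15SKO, against 10.6, 10.9 and 13.4 FPKM in MyoCre. Txnrd3, known from testis, was at 2.94, 3.85 and 2.80 FPKM in K15SKO, against 3.03, 2.97 and 3.12 FPKM in MyoCre. The groups overlapped for all 3 reductases.

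Among 10 thioredoxin-like and thioredoxin domain genes, 5 had log2 differences above 0 and 5 below, between −0.47 and 0.32. Txndc16, of the endoplasmic reticulum, was at 4.34, 4.69 and 7.52 FPKM in K15SKO, against 7.35, 8.29 and 7.93 FPKM in MyoCre, and was low in K15SKO 1 and 2 (limma adjusted p = 0.294). The cytosolic Txndc17 and Txnl1 were high in the same libraries. Txndc17 was at 52.8, 44.4 and 36.8 FPKM in K15SKO, against 34.7, 39.2 and 33.1 FPKM in MyoCre, and Txnl1 at 39.8, 32.9 and 24.9 FPKM in K15SKO, against 24.4, 27.7 and 24.3 FPKM in MyoCre. Txndc5, a protein disulfide isomerase, stood at 20.3 ± 2.12 FPKM in K15SKO and 18.8 ± 1.40 FPKM in MyoCre (SD, n = 3 each). Txndc12, another protein of the endoplasmic reticulum, stood at 6.5 ± 0.891 FPKM in K15SKO and 7.38 ± 0.919 FPKM in MyoCre (SD, n = 3 each). Txndc9, Txndc11, Txndc15, Txnl4a and Txnl4b, of which the last 2 belong to the splicing machinery, had log2 differences between −0.10 and 0.11.

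Of 6 peroxiredoxins, 3 were higher and 0 lower at an unadjusted p under 0.05 (8.43% and 8.12% of all genes), and limma called 0 at the adjusted threshold. Prdx2 (chr8:84969587-84974834), an abundant cytosolic enzyme also known from red cells, was at 133, 104 and 115 FPKM in K15SKO, against 82.0, 80.0 and 83.4 FPKM in MyoCre. All 3 K15SKO libraries were above MyoCre, whose libraries lay within a few FPKM of each other (log2 difference 0.51, SE 0.13, limma adjusted p = 0.266). The opposite-strand genes Rnaseh2a and Junb overlap 11.5% of the exon bases of Prdx2. The 8 erythroid markers, such as Hbb-bs, summed to 125, 75.5 and 467 FPKM in K15SKO, against 152, 599 and 95.7 FPKM in MyoCre, and their part in the level of Prdx2 was not tested. Prdx6 (chr1:161240112-161251219, minus strand), which also repairs oxidised phospholipids and draws on glutathione, was at 117, 122 and 69.8 FPKM in K15SKO, against 57.0, 56.8 and 54.1 FPKM in MyoCre. It was above MyoCre in all 3, and far above in K15SKO 1 and 2 (log2 difference 0.83, SE 0.22, limma adjusted p = 0.269). The log2 difference of Prdx6 ran from 0.68 to 1.08 with 1 library left out, highest without K15SKO 3. Prdx4 (chrX:155323918-155340754, minus strand), the peroxiredoxin of the endoplasmic reticulum, was at 10.6, 14.6 and 5.32 FPKM in K15SKO, against 3.92, 5 and 4.78 FPKM in MyoCre. K15SKO 3 was above the highest MyoCre library by less than 1 FPKM (log2 difference 0.91, SE 0.32, limma adjusted p = 0.280).

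The other peroxiredoxins gave no shared direction. Prdx3 (chr19:60864051-60874556, minus strand), the form of the mitochondrial matrix, was at 136, 147 and 207 FPKM in K15SKO, against 179, 192 and 187 FPKM in MyoCre, lower in K15SKO 1 and 2 and higher in K15SKO 3. Prdx5, found in mitochondria, peroxisomes and cytosol, was at 118, 108 and 157 FPKM in K15SKO, against 118, 117 and 124 FPKM in MyoCre, with 19.1% of its exon bases overlapped by the opposite-strand gene Trmt112. Prdx1, the main cytosolic form, was at 170, 185 and 146 FPKM in K15SKO, against 149, 168 and 149 FPKM in MyoCre, with the opposite order of libraries. The limma adjusted p of these 3 ran from 0.513 to 0.793, and the groups overlapped. Prdx3 held 19.9%, 21.6% and 29.6% of the summed FPKM of the 6 peroxiredoxins in K15SKO, against 30.4%, 31% and 31.1% in MyoCre. The sum stood at 689 ± 10.7 FPKM in K15SKO and 603 ± 15 FPKM in MyoCre (SD, n = 3 each).

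Of the 3 superoxide dismutases, 0 passed the adjusted test, and Sod1 alone had groups that did not overlap. Sod1 (chr16:90220754-90226329), the copper-zinc enzyme of the cytosol, was at 311, 283 and 208 FPKM in K15SKO, against 183, 205 and 197 FPKM in MyoCre. K15SKO 3 was only just above the highest MyoCre library, and the groups overlapped after median-of-ratios scaling (log2 difference 0.43, SE 0.17, limma adjusted p = 0.295). By mean it was the most abundant member in K15SKO and the third in MyoCre. Sod2 (chr17:13006846-13040063), the manganese enzyme of mitochondria, was at 75.8, 73.8 and 120 FPKM in K15SKO, against 99.9, 106 and 93.1 FPKM in MyoCre, like Prdx3 below the MyoCre range in K15SKO 1 and 2 and above it in K15SKO 3. The ratio of Sod1 to Sod2 FPKM was 4.10, 3.84 and 1.74 in K15SKO, against 1.84, 1.93 and 2.11 in MyoCre, again chosen after its values were seen. Of the 50-base words of Sod2 transcripts, 21% also occur in other genes, so that its level and this ratio are uncertain. Sod3, the secreted form, was at 4.53, 2.36 and 1.61 FPKM in K15SKO, against 3.59, 4.31 and 1.96 FPKM in MyoCre.

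Cat, the peroxisomal catalase, was at 57.7, 129 and 62.4 FPKM in K15SKO, against 60.5, 77.6 and 54.0 FPKM in MyoCre. It was high in K15SKO 2, the library with the most liver transcripts, and the log2 difference of 0.29 (limma adjusted p = 0.618) was −0.08 without that library. The heme oxygenases and Nqo1, a quinone reductase and classic NRF2 target, had limma adjusted p between 0.443 and 0.5. Hmox1, the inducible enzyme that breaks down heme, was at 10.7, 6.86 and 7.60 FPKM in K15SKO, against 5.83, 6.97 and 7.86 FPKM in MyoCre, high in K15SKO 1 alone. Hmox2, the constitutive form, was at 23.9, 22.8 and 27.7 FPKM in K15SKO, against 20.1, 21.8 and 23.8 FPKM in MyoCre, with 40.2% of its exon bases overlapped by the opposite-strand gene Cdip1. Nqo1 was at 18.0, 16.7 and 24.2 FPKM in K15SKO, against 19.7, 25.7 and 22.5 FPKM in MyoCre. The 10 members with the letters of an antioxidant response element stood on both sides. Log2 differences above 0 were those of Sod1 (0.43), Prdx1 (0.10), Txndc5 (0.10), Gsta3 (1.6), Mgst1 (0.56) and Gstm7 (0.06). The last 3 of these were marked as far highest in K15SKO 2. Below 0 were Gclm (−0.09), Txndc11 (−0.09), Gstm5 (−0.25) and Txnrd1 (−0.58).

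Beyond the members, 6 lists of other pathway genes held 76 genes tested, and limma called 0 of them at an adjusted p of 0.05, while 7 were higher (9.21%, against 8.43% of all genes) and 9 lower (11.8%, against 8.12%) at an unadjusted p under 0.05. Among 11 genes of glutathione synthesis and breakdown, 1 was higher and 2 lower at that level, with the same shares of all genes as background. Chac1, which breaks glutathione down in the cytosol, was at 31.9, 31.9 and 74.4 FPKM in K15SKO, against 142, 129 and 190 FPKM in MyoCre, lower in 3 of 3 libraries (log2 difference −1.81, SE 0.35, limma adjusted p = 0.248). Gss, glutathione synthetase, was at 3.54, 4.38 and 3.39 FPKM in K15SKO, against 2.42, 3.16 and 2.60 FPKM in MyoCre, higher in 3 of 3 (limma adjusted p = 0.288). Ggct, an enzyme of the gamma-glutamyl cycle, was at 1.94, 1.86 and 1.80 FPKM in K15SKO, against 2.18, 2.78 and 3.97 FPKM in MyoCre, lower in 3 of 3 (limma adjusted p = 0.295). None of the 3 passed the adjusted test.

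Among 13 genes of glutaredoxins, glyoxalase and methionine sulfoxide reduction, 4 were higher and 1 lower at an unadjusted p under 0.05 (8.43% and 8.12% of all genes). Hagh, the second enzyme of the glyoxalase pathway, was at 86.3, 91.1 and 49.97 FPKM in K15SKO, against 40.3, 41.0 and 47.7 FPKM in MyoCre (limma adjusted p = 0.272). Msra stood at 25.0 ± 5.71 FPKM in K15SKO and 16.4 ± 2.17 FPKM in MyoCre, and Msrb3 at 54.7 ± 17.5 FPKM in K15SKO and 88.2 ± 3.46 FPKM in MyoCre (SD, n = 3 each). Both reduce oxidised methionine, and their differences had opposite signs.

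Among 14 genes of NADPH supply, 1 was higher and 3 lower at an unadjusted p under 0.05 (8.43% and 8.12% of all genes). Tkt, transketolase of the pentose phosphate pathway, was at 5.33, 6.43 and 2.88 FPKM in K15SKO, against 26.1, 24.5 and 7.57 FPKM in MyoCre, lower in 3 of 3 (limma adjusted p = 0.272). Me1, the cytosolic malic enzyme, stood at 75.0 ± 22.4 FPKM in K15SKO and 122 ± 5.35 FPKM in MyoCre, and Pgls, which acts earlier in the pentose phosphate pathway, at 25.4 ± 4.57 FPKM in K15SKO and 17.7 ± 0.793 FPKM in MyoCre (SD, n = 3 each). Fat expresses Tkt and Me1 strongly, and the adipocyte sums given above were lower in all 3 K15SKO libraries, whose part in these levels was not tested.

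Among 17 NRF2 regulators and iron or quinone genes, 1 was higher and 3 lower at an unadjusted p under 0.05 (8.43% and 8.12% of all genes). Nfe2l2, the gene of NRF2, stood at 19.1 ± 4.24 FPKM in K15SKO and 21.3 ± 1.52 FPKM in MyoCre, and Keap1, its inhibitor, at 30.3 ± 5.67 FPKM in K15SKO and 35.2 ± 2.04 FPKM in MyoCre (SD, n = 3 each). These differences lay within the spread of the K15SKO libraries, and Nfe2l2 and Keap1 were chosen as the pathway's namesakes. Bach1, a repressor at the same elements, was at 4.47, 5.13 and 8.53 FPKM in K15SKO, against 10.9, 10.8 and 10.1 FPKM in MyoCre, lower in 3 of 3 (limma adjusted p = 0.272). Blvra, biliverdin reductase, was at 16.9, 13.9 and 12.8 FPKM in K15SKO, against 10.8, 10.5 and 11.2 FPKM in MyoCre, higher in 3 of 3 (limma adjusted p = 0.272). Among 18 genes of selenium use and metallothioneins and 3 tested oxidant sources, 0 had an unadjusted p under 0.05.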

How the data were processed

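Total RNA of mouse quadriceps was sequenced from 3 K15SKO and 3 MyoCre libraries. The deposited matrix holds values read here as FPKM, made by the authors with STAR, Cufflinks and Cuffdiff on mm10, per the submitters' processing notes. The matrix does not name its unit, no tool version is stated, and FPKM keep no counts, so the depth is unknown and no counting interval was possible.

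Genes with a mean of at least 1 FPKM were fitted as log2(FPKM + 1) with limma 3.58.1 (R 4.3.3, lmFit and eBayes with trend), two-sided, with Benjamini-Hochberg adjustment over 11607 genes and a threshold of 0.05. Differences are K15SKO minus MyoCre on the log2(FPKM + 1) scale, which understates changes of low genes. The code was tested on simulated data. Tables and figures used Python 3.11.15, pandas 2.3.3, numpy 2.4.6, scipy 1.17.1 and matplotlib 3.10.9. Coordinates are from GENCODE M21 (GRCm38, the assembly of mm10) and promoters from RefSeq (GRCm38.p6). Shared sequence was measured as 50-base words of each gene's transcripts found in other genes.

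Members, lists and tests were chosen with earlier results of these data known. Named members were those past the threshold, a core list, and up to 4 per role with the smallest unadjusted p; other pathway genes were up to 3 per list. Members outside this rule were named after their values were seen. One gene of the macrophage list is not reported here, and the list was summed without it. Alternatives covered the pseudocount, filter, scaling, variance model, array weights, genes at 0, the replicate block and each library left out.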

Additional observations from a re-analysis of the deposited data

How the results depend on the processing

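The members' median log2 difference stayed above 0 under the 16 alternatives, between 0.0242 and 0.1644. Calls depended on the K15SKO libraries. With array weights, limma called 2398 of 11607 genes and 13 of 55 members, and 25 members had an unadjusted p under 0.05. Leaving out each library in turn gave 3 to 2743 called genes and 0 to 17 called members. It gave 5 to 22 members at an unadjusted p under 0.05 and 11 to 26 members whose groups do not overlap. Each highest value came without K15SKO 3. The 17 were 10 higher (18.2%, against 10.8% of all genes) and 7 lower (12.7%, against 12.8%). With a library left out, groups fail to overlap more readily in any gene. Under these alternatives no share of all genes is given for the unadjusted p or the overlap. Nothing is therefore read from those counts of members. Against 6 called genes in the fit as reported, 3 were called with no filter on low values and 0 with genes at 0 in a whole group left out. Of 42 named members, 30 never turned sign. Mgst3 was at −0.0015 after quantile normalization, and with array weights Gclm was at 0.0230, Gpx4 at −0.0086, Mgst3 at −0.1613 and Prdx5 at −0.0615. With 1 library left out, log2 differences ran from −0.0755 to 0.4963 for Cat, −0.1995 to 0.0371 for Gclm, −0.0565 to 0.3455 for Gpx7, −0.3111 to 0.4011 for Gpx8, −0.1417 to 2.4917 for Gsta3 and −0.2344 to 0.7247 for Gstt1. They ran from −0.2657 to 0.2643 for Gstz1, −0.3798 to 1.0954 for Mgst1, −0.1059 to 0.2360 for Mgst3, −0.0812 to 0.1864 for Prdx5 and −0.4906 to 0.0499 for Sod3. The cause was not tested. Whether replicate numbers pair the libraries cannot be told. Same-number correlations were small, at 0.002, 0.085 and 0.094, yet the K15SKO libraries each correlated best with their own number. The fit with the replicate block called 3 genes and 0 members. The 3 libraries per group and the unknown depth limit all values of low genes.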

Other observations

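The metallothioneins, small metal-binding proteins that stress and zinc raise, stood far apart between K15SKO libraries. Mt1 was at 230, 74.3 and 35.6 FPKM in K15SKO, against 35.4, 34.4 and 28.2 FPKM in MyoCre (limma adjusted p = 0.317). Mt2 was at 268, 89.9 and 9.43 FPKM in K15SKO, against 15.3, 18.8 and 17.9 FPKM in MyoCre (limma adjusted p = 0.402). K15SKO 1 was highest for both genes, and in K15SKO 3 Mt1 lay level with MyoCre and Mt2 below it. Sepp1, the plasma selenoprotein that liver secretes, was at 89.4, 290 and 96.1 FPKM in K15SKO, against 98.7, 114 and 100 FPKM in MyoCre, high in the library with liver transcripts alone.

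Subunits of the phagocyte oxidase, which makes superoxide, were low in every library and highest in K15SKO 1. Cybb was at 2.76, 1.55 and 0.250 FPKM in K15SKO, against 0.350, 0.388 and 0.323 FPKM in MyoCre. Ncf1 was at 2.80, 1.17 and 0.427 FPKM in K15SKO, against 0.261, 0.410 and 0.246 FPKM in MyoCre. Both had means under 1 FPKM and were not tested. Lyz2, a macrophage gene, was at 173, 83.6 and 18.6 FPKM in K15SKO, against 22.8, 22.3 and 18.7 FPKM in MyoCre, with the same order of K15SKO libraries. These genes were chosen after their values were seen.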
